A study of Mus musculus with 3 samples.

Results

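Drug metabolism and efflux were followed in mouse colon organoids through 10 genes, chosen by their symbols out of 32285 genes in the deposited matrices. They are the cytochrome P450 genes Cyp2c55, Cyp2c65 and Cyp2c68, the efflux pumps Abcb1a and Abcg2, the carboxylesterase Ces2c, the sulfotransferase Sult1b1, the glutathione transferases Gsta4 and Gm3776, and Nr1i2, which encodes the xenobiotic receptor PXR. All 10 genes were found once by symbol. They were picked with the knowledge that most of them had lower values in these same IFN-γ libraries, so the comparison with untreated organoids is given as a description and was not tested. The organoids were epithelial cultures from the colon of wild-type C57BL/6 mice in full medium, and each of the 3 sc-RNAseq libraries was 1 condition. These were untreated organoids, organoids with mouse IFN-γ for 24 h and organoids with IFN-γ for 48 h, at a dose of 50 ng/ml in the organoid methods of the study. Sorting for DAPI-negative cells removed dead cells before capture in droplets. With 1 library per condition there is no replicate error. Every interval below is a 95% interval for counting error only, and no p-value was computed.

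Enterocytes handle foreign compounds in steps. P450 enzymes and esterases make a functional group available by oxidation or hydrolysis, transferases attach sulfate, glucuronic acid or glutathione to it, and ATP-binding cassette pumps move drugs and conjugates back into the lumen. PXR is a nuclear receptor that binds many drugs and bile acids, pairs with the retinoid X receptor and activates genes of each of these steps, Cyp2c55 and Abcb1a among its known targets in the gut. The gene Gm3776 is a close relative of Gsta1, and Abcb1a and Abcb1b are the mouse counterparts of the human multidrug resistance gene MDR1.

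A barcode counted as a cell if it had 5000 or more UMIs (unique molecular identifiers, each standing for 1 captured transcript), 400 or more genes and a mitochondrial share of 15% or less. This kept 1058 barcodes of the untreated library, 917 of the 24 h library and 2934 of the 48 h library. The cells of a library held 47243500 to 71077817 UMIs, with medians of 33550 UMIs per untreated cell, 68784 per cell at 24 h and 10772 per cell at 48 h. Cells of different libraries shared 1 to 4 cell barcodes. The treatment was visible in the interferon targets Irf1 and Cd74, whose log2 ratios to the untreated library were 3.82 and 11.64 at 24 h and 3.72 and 12.57 at 48 h. Epithelial identity was checked with markers of other cells. Of 8 immune markers, 3 or 4 had no UMI in a library, Ptprc and Tyrobp in each of the 3, and the summed level of the list was 0.675 to 2.21 CPM (UMIs summed over cells, per 1000000 UMIs of these cells). Of 8 stromal markers, 4 or 5 had no UMI in a library, Col1a1, Col3a1 and Lum in each, and the summed level of that list was 2.13 CPM in untreated cells, 11.4 CPM at 24 h and 18 CPM at 48 h, of which Acta2 contributed 0.843, 10.9 and 17.1 CPM. The part of these markers in the values of the 10 genes was not tested.

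The promoter windows of 5 genes are shown first, because the genes were lower together in the IFN-γ libraries and because the 3 Cyp2c genes are members of 1 gene family on chromosome 19. The sequences are RefSeq windows of 300 bases on GRCm38.p6, from 250 bases before to 50 bases after the annotated start, read 5′ to 3′ on the strand of the gene. Capitals mark matches, on either strand, to any of 6 short motifs. These were the nuclear receptor hexamers AGGTCA and AGTTCA, the HNF4 site CAAAGTCCA, the interferon gamma-activated site TTCNNNGAA (GAS), the core of the interferon-stimulated response element (ISRE, GAAA repeated after a gap of 2 bases), and the TATA box TATAAA. The windows lie on the plus strand at chr19:39006769-39007068 for Cyp2c55, chr19:39060756-39061055 for Cyp2c65 and chr5:8566841-8567140 for Abcb1a, and on the minus strand at chr19:39741052-39741351 for Cyp2c68 and chr16:38294775-38295074 for Nr1i2.
Cyp2c55: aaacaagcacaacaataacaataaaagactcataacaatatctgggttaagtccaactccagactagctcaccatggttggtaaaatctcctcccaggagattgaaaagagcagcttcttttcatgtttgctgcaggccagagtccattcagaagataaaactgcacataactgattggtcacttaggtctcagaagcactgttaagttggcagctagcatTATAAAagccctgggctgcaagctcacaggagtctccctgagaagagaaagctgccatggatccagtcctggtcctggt
Cyp2c65: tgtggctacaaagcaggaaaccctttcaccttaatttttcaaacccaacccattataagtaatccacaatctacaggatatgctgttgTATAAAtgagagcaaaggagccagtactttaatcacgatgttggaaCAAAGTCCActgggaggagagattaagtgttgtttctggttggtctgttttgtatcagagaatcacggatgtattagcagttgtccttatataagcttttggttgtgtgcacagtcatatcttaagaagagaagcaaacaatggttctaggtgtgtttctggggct
Cyp2c68: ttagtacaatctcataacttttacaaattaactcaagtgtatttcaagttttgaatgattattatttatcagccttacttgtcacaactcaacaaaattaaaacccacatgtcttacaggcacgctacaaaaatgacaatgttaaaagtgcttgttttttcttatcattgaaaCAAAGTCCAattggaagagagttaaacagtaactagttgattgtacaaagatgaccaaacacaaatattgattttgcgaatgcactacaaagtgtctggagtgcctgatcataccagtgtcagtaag
Abcb1a: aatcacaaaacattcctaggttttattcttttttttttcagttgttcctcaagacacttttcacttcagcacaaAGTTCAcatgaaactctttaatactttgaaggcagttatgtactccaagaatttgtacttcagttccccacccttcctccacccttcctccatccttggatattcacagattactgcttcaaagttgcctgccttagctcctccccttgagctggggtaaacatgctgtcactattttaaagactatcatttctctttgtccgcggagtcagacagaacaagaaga
Nr1i2: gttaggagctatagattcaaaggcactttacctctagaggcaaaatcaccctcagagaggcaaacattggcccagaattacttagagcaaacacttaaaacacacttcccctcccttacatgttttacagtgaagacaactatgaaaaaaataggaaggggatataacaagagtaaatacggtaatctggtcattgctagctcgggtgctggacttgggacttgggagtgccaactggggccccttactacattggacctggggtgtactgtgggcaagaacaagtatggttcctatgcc

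RefSeq windows were matched for 9 of the 10 genes, Gsta4 being the exception, with 3 windows for Abcg2 and 2 for Sult1b1. The capitals in Cyp2c55 mark a TATA box, which starts 29 bases before the annotated start, and 13.6% of 32851 mouse promoter windows of this length held that motif. Cyp2c65 held a TATA match that starts at −162 and the HNF4 motif that starts at −116, and Cyp2c68 held the HNF4 motif that starts at −77. That HNF4 motif was found in 0.475% of all windows, and it was also present in the second window of Sult1b1, where it starts 26 bases after the start. The window of Abcb1a held AGTTCA at −176, a hexamer found in 14% of windows, and the first window of Sult1b1 held AGTTCA and AGGTCA at 2 places each. AGGTCA, found in 16.3% of windows, was also present in 2 of the 3 windows of Abcg2, and TATAAA was in 2 of them after the start. A GAS match was found in Gm3776, at −149, against 8.3% of all windows, and the ISRE core, found in 3.44% of windows, was in none of the windows of the 9 genes. The windows of Nr1i2 and Ces2c held none of the 6 motifs. A match is a description of these letters and says nothing of binding. The start of Abcb1a in RefSeq lies upstream of the start in the GENCODE vM21 annotation on GRCm38, which places Abcb1a at chr5:8660077-8748575. The window shown for Abcb1a ends at chr5:8567140. It and its AGTTCA match thus lie outside that gene and do not include the GENCODE start. The other 4 windows shown include the GENCODE gene start.

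Sequence similarity limits how far counts can be assigned to single members of these families. All 14 Cyp2c genes of the matrices lie on chromosome 19, with Cyp2c55 at chr19:39007019-39042693, Cyp2c65 at chr19:39061015-39093944 and Cyp2c68 at chr19:39688834-39741054. The last 500 bases of the longest coding transcript of each gene were cut into windows of 90 bases, and windows found unchanged in a transcript of another family member were counted. Of 411 windows per gene, none was shared for Cyp2c55 or Cyp2c65, while 115 windows of Cyp2c68 (28%) were shared with Cyp2c40 or Cyp2c67, and its last 500 bases were 98.6% identical to those of Cyp2c40. The ends of Cyp2c55 and Cyp2c65 were at most 54% and 53.8% identical to that of any other Cyp2c gene. For Gm3776, 321 of 411 windows (78.1%) were shared with Gsta1 or Gsta2, and its end was 99.4% identical to that of Gsta1. The values of Cyp2c68 and Gm3776 are therefore uncertain, because reads could have been split between copies or dropped. The same holds for Cyp2c40, Cyp2c67 and Cyp2c69, with 49.9%, 23.1% and 23.8% of windows shared within the family, and for Gsta1 with 77.9%. No window was shared for Abcb1a with Abcb1b, for Gsta4 with the other alpha class transferases, for Ces2c with 5 other Ces2 genes, for Sult1b1 with 3 other Sult1 genes, or for Nr1i2 with Nr1i3. In the same annotation these genes lie at chr9:78182774-78209349 (Gsta4), chr9:78257129-78269166 (Gm3776), chr8:104847068-104854483 (Ces2c), chr5:87513339-87538195 (Sult1b1), chr6:58584523-58695676 (Abcg2) and chr16:38248323-38294824 (Nr1i2), and all 10 are annotated as protein-coding. Among the promoter windows, that of Cyp2c68 was 91.1% identical to that of Cyp2c69 and 75.1% identical to that of Cyp2c40, and those of Cyp2c55 and Cyp2c65 were 56% identical.

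Of the oxidation genes, Cyp2c55, a colonic P450 that oxidises drugs and fatty acids, had 376 CPM in the untreated library, 5.15 CPM at 24 h and 3.39 CPM at 48 h. The untreated library was thus high and the IFN-γ libraries low, and their counting intervals (371 to 381, 4.64 to 5.7 and 2.88 to 3.95 CPM) did not overlap. The log2 ratio of Cyp2c55 to untreated was −6.19 (−6.34 to −6.04) at 24 h and −6.79 (−7.03 to −6.57) at 48 h, or 73-fold and 111-fold lower. Among 8652 genes averaging 10 CPM or more over the libraries, Cyp2c55 ranked 2 from the lowest ratio at 24 h and 5 from the lowest at 48 h. Cyp2c68 had 18.2, 0.521 and 0.318 CPM in the untreated, 24 h and 48 h libraries. Its ratios were −5.13 (−5.64 to −4.65) and −5.84 (−6.68 to −5.11), from 37 and 15 UMIs in the IFN-γ libraries, so they rest on few counts. Cyp2c65, the direct neighbour of Cyp2c55 on chromosome 19, had 3.33, 1.66 and 0.741 CPM. Its ratio at 24 h was −1.01 (−1.36 to −0.66), just past 2-fold, and at 48 h it was −2.17 (−2.74 to −1.64). The neighbours Cyp2c55 and Cyp2c65 thus stood far apart in their ratios, with intervals that did not overlap at either time.

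The other Cyp2c paralogs with at least 10 UMIs in any library were Cyp2c40, Cyp2c67, Cyp2c69 and Cyp2c70. The values of Cyp2c40, Cyp2c67 and Cyp2c69 carry the uncertainty of shared ends, while Cyp2c70 shared no window. Cyp2c40 had 16 UMIs in untreated cells and 0 in each IFN-γ library, and Cyp2c70 had 55 and 0. Cyp2c67 had 27, 0 and 1 UMIs, and Cyp2c69 had 76, 1 and 0 UMIs in the untreated, 24 h and 48 h libraries. With a floor of 3 counts per library in place of 0, the 24 h ratios of Cyp2c40, Cyp2c67 and Cyp2c70 were at or below −2.93, −3.68 and −4.71, and that of Cyp2c69, from its 1 UMI, was −6.76 (−12.08 to −4.24). The remaining 7 Cyp2c genes had 0 to 2 UMIs in each library. These 4 paralogs reached 10 UMIs through the untreated library alone, so their direction is set by that limit and no count over the family is given.

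Of the efflux pumps, Abcb1a, which encodes P-glycoprotein, the pump that returns many lipophilic drugs to the gut lumen, had 216 CPM in the untreated library, 18.6 CPM at 24 h and 21.6 CPM at 48 h. Its log2 ratios were −3.54 (−3.62 to −3.45) and −3.32 (−3.42 to −3.23), or 11.6-fold and 10-fold lower. The 48 h library was slightly above the 24 h library, with a log2 ratio of 0.21 (0.09 to 0.33), but with TMM factors in place of library totals that ratio was −0.06. Abcg2, the breast cancer resistance protein, which exports sulfated and other conjugates, had 8.88, 2.95 and 2.5 CPM, with ratios of −1.59 (−1.83 to −1.35) and −1.83 (−2.13 to −1.53). The paralog Abcb1b, singled out after its values were seen, had 8.92, 7.92 and 12.3 CPM. Its ratios were −0.17 (−0.35 to 0.01) at 24 h and 0.46 (0.28 to 0.64) at 48 h, unlike those of Abcb1a on the same chromosome, and at 24 h the ratio of Abcb1b was 0.28 with TMM factors. No window of 90 bases at the transcript ends was shared by Abcb1a and Abcb1b.

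For hydrolysis, Ces2c, an intestinal carboxylesterase that hydrolyses ester drugs, had 17.8, 3.67 and 3.39 CPM in untreated, 24 h and 48 h cells. Its log2 ratios of −2.27 (−2.48 to −2.07) and −2.39 (−2.64 to −2.15) had overlapping intervals at 24 h and 48 h. For sulfation, Sult1b1, which sulfates phenols and thyroid hormones, had 39 CPM in untreated cells, 4.97 CPM at 24 h and 3.28 CPM at 48 h. Its ratio was −2.97 (−3.14 to −2.81) at 24 h and −3.57 (−3.82 to −3.34) at 48 h, with the 48 h library below the 24 h library by a log2 ratio of −0.60 (−0.88 to −0.32).

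For glutathione conjugation, Gsta4, which conjugates the lipid peroxidation product 4-hydroxynonenal, had 179.7 CPM in untreated cells, 59.4 CPM at 24 h and 19.7 CPM at 48 h. Gm3776, of the same alpha class, had 17 CPM, 4.46 CPM and 0.614 CPM. In these genes the 3 libraries stood in steps, with the 48 h library below the 24 h library by a log2 ratio of −1.59 (−1.69 to −1.49) for Gsta4 and −2.86 (−3.46 to −2.31) for Gm3776. Against untreated, the ratios of Gsta4 were −1.60 (−1.65 to −1.54) and −3.19 (−3.28 to −3.09), and those of Gm3776 were −1.93 (−2.12 to −1.74) and −4.79 (−5.38 to −4.26). Gsta1, with which Gm3776 shares most of its end sequence, had 98, 13.8 and 3.07 CPM, with ratios of −2.83 and −5.00.

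**Figure D1:**
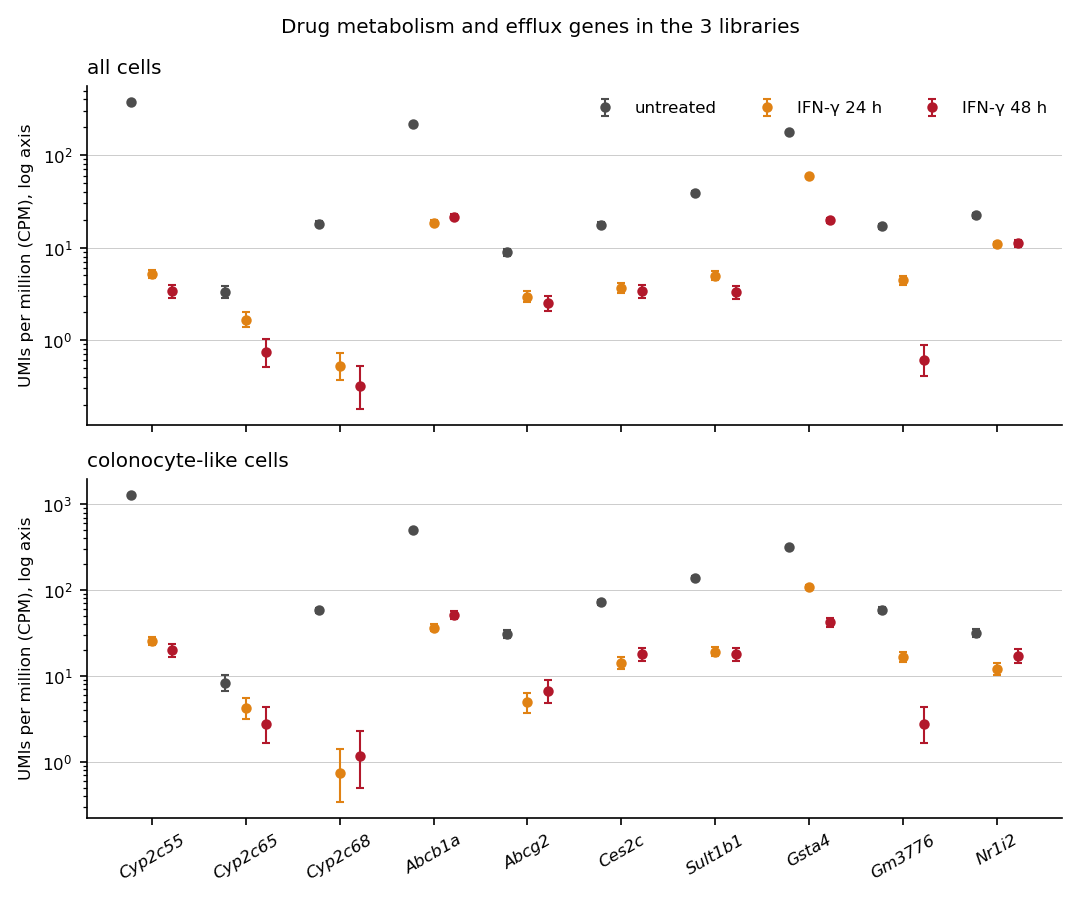
CPM (log axis) of the 10 genes in the untreated, IFN-γ 24 h and IFN-γ 48 h libraries, summed over all filtered cells (top) and over colonocyte-like cells (bottom); bars are exact Poisson 95% intervals. The untreated point lies above both IFN-γ points for each gene, from 376 against 5.15 and 3.39 CPM for Cyp2c55 to 3.33 against 1.66 and 0.741 CPM for Cyp2c65 over all cells.

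The receptor gene Nr1i2 had 22.3 CPM in untreated cells, 10.8 CPM at 24 h and 11.1 CPM at 48 h. Its log2 ratio was −1.04 (−1.17 to −0.91) at 24 h, and at 48 h it was 2-fold lower with an interval of −1.15 to −0.85 on the log2 scale. The log2 ratio of 48 h to 24 h was 0.04 (−0.12 to 0.20), and −0.23 with TMM factors. The difference between the log2 ratio of a gene and that of Nr1i2 was taken with a Wald interval from the 4 counts. At 24 h this difference was −5.15 (−5.35 to −4.95) for Cyp2c55, −2.50 (−2.65 to −2.34) for Abcb1a and −1.93 (−2.15 to −1.72) for Sult1b1. The other genes were thus further below untreated than the receptor gene, with the exception of Cyp2c65, for which the difference at 24 h was 0.03 (−0.33 to 0.40). At 48 h all 9 intervals lay below 0, the nearest being Abcg2 at −0.83 (−1.16 to −0.50). The genes were chosen with this contrast known. Among the 8652 genes averaging 10 CPM or more over the libraries, Nr1i2 ranked 638 from the lowest ratio at 24 h and 391 from the lowest at 48 h. Cyp2c65, Cyp2c68, Abcg2, Ces2c and Gm3776 averaged less and are not in that ranking. Because of the choice of genes, nothing is read from the number of genes below Nr1i2. Untreated cells had 16.9 UMIs of Cyp2c55 per UMI of Nr1i2, the 24 h library 0.475 and the 48 h library 0.304. These differences within a library do not depend on the scaling of that library.

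In all, 10 of 10 genes were at least 2-fold lower over all cells at 24 h and 10 of 10 at 48 h, beside 26% and 16.6% of all genes with at least 10 UMIs over the pair of libraries, and 8.14% and 4.53% of genes averaging 10 CPM or more. Since the genes were chosen with this contrast known, nothing is read from these shares. All 10 had at least 10 UMIs in each pair. Cyp2c65 at 24 h and Nr1i2 at both times lay closest to the 2-fold limit. The median log2 ratio of all genes with at least 10 UMIs was itself −0.46 at 24 h and −0.18 at 48 h, and TMM factors raised each ratio by 0.46 and 0.19. With TMM factors Nr1i2 was at −0.58 and −0.81, and Cyp2c65 at −0.55 and −1.98, while the other 8 genes stayed past 2-fold at both times. At 48 h against 24 h, 3 of 10 genes (Cyp2c65, Gsta4 and Gm3776) were at least 2-fold lower, beside 2.31% of all genes, and 4 of 10 intervals held 0. The median over all genes in that comparison was 0.26. When the level of each cell cluster was weighted by the untreated share of UMIs in that cluster, the ratio of Cyp2c55 was −5.90 at 24 h and −6.33 at 48 h and that of Abcb1a −3.27 and −3.18, so both stayed far below untreated. By that weighting 8 of 10 genes at 24 h and 9 of 10 at 48 h were at least 2-fold lower. Cyp2c65 was at −0.68 and −1.86 and Nr1i2 at −0.90 and −0.96. The share of all genes was not computed by that weighting, so nothing is read from these counts.

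The values in colonocyte-like cells came from clusters that were built without the 10 genes and without any gene of the drug metabolism lists. Cluster 2, with 174, 108 and 285 cells in the untreated, 24 h and 48 h libraries, was led by Krt20, Car1 and Slc26a3 and was named colonocyte-like from its markers. Cyp2c55, Sult1b1 and Ces2c were also among the 10 genes that led this cluster by fold. In untreated organoids it held 16.4% of the cells and 21.8% of the UMIs, but 88.1% of the UMIs of Ces2c, 77.7% of Sult1b1, 75.1% of Abcg2, 74.7% of Gm3776, 74.2% of Cyp2c55, 69.4% of Cyp2c68, 54.8% of Cyp2c65 and 50.5% of Abcb1a. These genes were thus concentrated in colonocyte-like cells, while Gsta4 and Nr1i2 were spread more widely, with 38.7% and 31.3%. The share of cells in the cluster was 11.8% at 24 h and 9.71% at 48 h. Clusters are not replicates, and their order of levels is a description.

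In colonocyte-like cells, Cyp2c55 had 1281 CPM in the untreated library, 25.5 CPM at 24 h and 19.9 CPM at 48 h. The log2 ratios were −5.65 (−5.82 to −5.49) and −6.01 (−6.26 to −5.76), or 50.2-fold and 64.3-fold lower. Abcb1a had 501, 36.7 and 51.9 CPM, with ratios of −3.77 (−3.91 to −3.63) and −3.27 (−3.43 to −3.11). The pump was therefore lower within the absorptive cells too. Sult1b1 had 139, 19.3 and 17.9 CPM and Ces2c 71.8, 14.3 and 17.9 CPM, so both were 4.02-fold to 7.79-fold lower in the IFN-γ libraries. Abcg2 had 30.6, 4.92 and 6.69 CPM, and its ratio at 24 h, −2.64 (−3.06 to −2.24), lay below its ratio over all cells. Gsta4 had 319, 109 and 42.5 CPM and Gm3776 58.3, 16.7 and 2.76 CPM, again in steps from untreated to 48 h. Cyp2c68 had 58, 0.738 and 1.16 CPM, from 9 and 8 UMIs in the IFN-γ libraries. Smaller differences were seen for Cyp2c65 and for the receptor gene. Cyp2c65 had 8.39, 4.27 and 2.76 CPM, with ratios of −0.98 (−1.50 to −0.47) and −1.60 (−2.40 to −0.88). Nr1i2 had 32, 12.1 and 17.3 CPM, with ratios of −1.40 (−1.69 to −1.12) and −0.89 (−1.20 to −0.58).

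At least 2-fold lower in colonocyte-like cells were 9 of 10 genes at 24 h, beside 20.3% of all genes with at least 10 UMIs, and 9 of 10 at 48 h, beside 13.3%. The exceptions were Cyp2c65 at 24 h and Nr1i2 at 48 h. Against 24 h, 2 of 10 genes (Gsta4 and Gm3776) were at least 2-fold lower at 48 h, beside 3.27% of all genes, whereas Abcb1a and Nr1i2 were higher at 48 h by log2 ratios of 0.50 (0.30 to 0.71) and 0.51 (0.15 to 0.87), or 0.22 and 0.23 with TMM factors. At 24 h the difference from Nr1i2 within these cells was −4.25 (−4.57 to −3.93) for Cyp2c55, and its interval held 0 for Gsta4 (−0.15, −0.44 to 0.14) and for Cyp2c65 (0.42, −0.14 to 0.99). At 48 h the interval of Cyp2c65 held 0 as well (−0.72, −1.49 to 0.06). The markers that named the cells had lower levels as well. In colonocyte-like cells 14 of 18 colonocyte markers were at least 2-fold lower at 24 h and 11 of 18 at 48 h, with medians of −2.25 and −1.95, and the summed level of the list was 7479 CPM in untreated cells, 2636 CPM at 24 h and 2908 CPM at 48 h. Krt20 was higher, at 90.1, 134 and 155 CPM, and Lypd8 was at 2455, 1890.2 and 2180.3 CPM. The part of these markers in the values of the 10 genes was not tested. Without integration the colonocyte-like clusters split by library (478 untreated cells, 109 at 24 h and 397 at 48 h), and 4 of 10 genes (Cyp2c55, Cyp2c68, Abcb1a and Gsta4) were at least 2-fold lower at 24 h. With integration 174 untreated cells were colonocyte-like. The proliferating-like cluster held 9 untreated cells without integration and 277 with it, so the untreated colonocyte-like group was a different mix of cells. The part of this mix in the ratios without integration was not tested. In that setting Ces2c stood at −0.08, Sult1b1 at −0.84, Abcg2 at −0.51 and Nr1i2 at −0.17 at 24 h, so their 2-fold difference was lost, and Cyp2c65 and Gm3776 stood above 0, at 0.98 and 0.17. At 48 h, Ces2c at −0.52, Abcg2 at −0.76 and Cyp2c65 at −0.18 were no longer past 2-fold. The 10% of cells per library with the highest share of colonocyte marker UMIs were also taken. Of the 10 genes, 10 were at least 2-fold lower there at either time. The share of all genes was not computed there or without integration, so nothing is read from these counts.

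**Figure D2:**
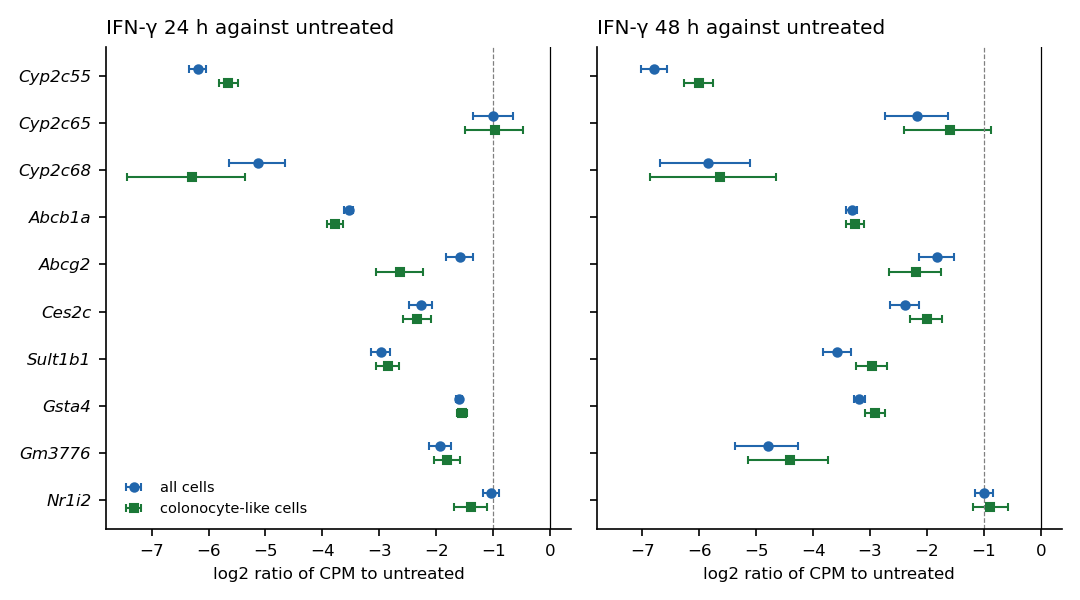
Log2 ratio of CPM to the untreated library at 24 h (left) and 48 h (right) for the 10 genes, over all cells (circles) and in colonocyte-like cells (squares), with exact conditional binomial 95% intervals; the dashed line marks 2-fold lower. The points lie left of 0 throughout, with Cyp2c55 between −6.79 and −5.65 and Nr1i2 between −1.40 and −0.89.

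Most of the genes were also lower outside colonocyte-like cells, with Abcg2, Cyp2c65 and Ces2c as exceptions in several clusters. The share of all genes was not computed within these clusters, so nothing is read from how many were lower. In proliferating-like cells (277, 427 and 823 cells in the 3 libraries) Cyp2c55 had 61.6, 0.596 and 0.225 CPM, and in goblet-like cells (136, 78 and 234 cells) it had 338 UMIs in untreated cells, none at 24 h and 1 at 48 h. With a floor of 3 counts in place of 0, Cyp2c55 was at least 77-fold lower in goblet-like cells at 24 h. The upper end of its counting interval was a log2 ratio of −5.96. Barcodes under 2000 UMIs, taken as a stand-in for free RNA, had 131, 3.14 and 0.783 CPM of Cyp2c55 in the 3 libraries. The untreated levels in goblet-like cells (49 CPM), proliferating-like cells (61.6 CPM) and cluster 0 (95.7 CPM) lay below that 131 CPM. The part of free RNA in these values was not tested. Abcb1a had 94.3, 10.7 and 10.4 CPM in proliferating-like cells and 126, 14.8 and 19.7 CPM in goblet-like cells, so its difference was 6.43-fold to 9.07-fold in these classes. Gsta4 had 183.8, 53.6 and 19.2 CPM in proliferating-like cells, and this cluster held 46.5% of its untreated UMIs and 45.5% of all untreated UMIs. For Abcg2 no difference beyond counting error was detectable in proliferating-like cells, with 1.99, 2.08 and 1.3 CPM and log2 ratios of 0.06 (−0.46 to 0.61) and −0.61 (−1.33 to 0.10). For goblet-like cells the intervals of Abcg2 and Cyp2c65 held 0 at both times, from 4 to 20 UMIs per library, and the ratios above 0 were 0.74 and 0.19 for Cyp2c65 and 0.78 at 24 h for Abcg2. In the unnamed cluster 0, Ces2c had a ratio of 0.94 (−0.61 to 2.51) at 24 h, from 8 and 9 UMIs. The interval of Ces2c also held 0 there at 48 h, and in goblet-like cells at both times. At 24 h the intervals of Abcg2 (−1.37 to 0.72) and Cyp2c65 (−3.50 to 0.11) held 0 in cluster 0 too. Nr1i2 had 15.1, 8.57 and 7.51 CPM in proliferating-like cells and 16.5, 10.6 and 7.81 CPM in goblet-like cells. Of the 37 UMIs of Cyp2c68 over all cells at 24 h, 16 lay in 12 enteroendocrine-like cells, a group under the minimum of 50 cells. There Cyp2c68 had 45.5 CPM (26 to 74) at 24 h, against 17.7 CPM (8.49 to 32.5) in untreated cells, from 10 UMIs, and 0 UMIs at 48 h. These 2 intervals overlapped.

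Another group of untreated cells carried Cyp2c55 at the level of the colonocyte-like cells. Cluster 4, with 58 untreated cells, a low median depth of 10802 UMIs and Slc2a13, Pparg and Neat1 among its leading genes, matched no marker list and stayed unnamed. It had 1305 CPM of Cyp2c55, 649.7 CPM of Abcb1a and 51.1 CPM of Nr1i2 in the untreated library. At 48 h, with 155 cells, these were 6.53, 45.1 and 18.3 CPM, and the 24 h library had 37 cells of this cluster, under the minimum of 50. Each of the 3 genes was thus lower at 48 h in this cluster too. Cluster 0, with 349, 186 and 1348 cells in the untreated, 24 h and 48 h libraries, was unnamed for another reason. In it 10 genes of the list of stem cell markers passed the marker cuts. It stayed unnamed because its depth was low and no gene of that list was among its 10 leading genes. Cluster 0 had 95.7, 0.779 and 0.435 CPM of Cyp2c55 in the untreated, 24 h and 48 h libraries.

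**Figure D3:**
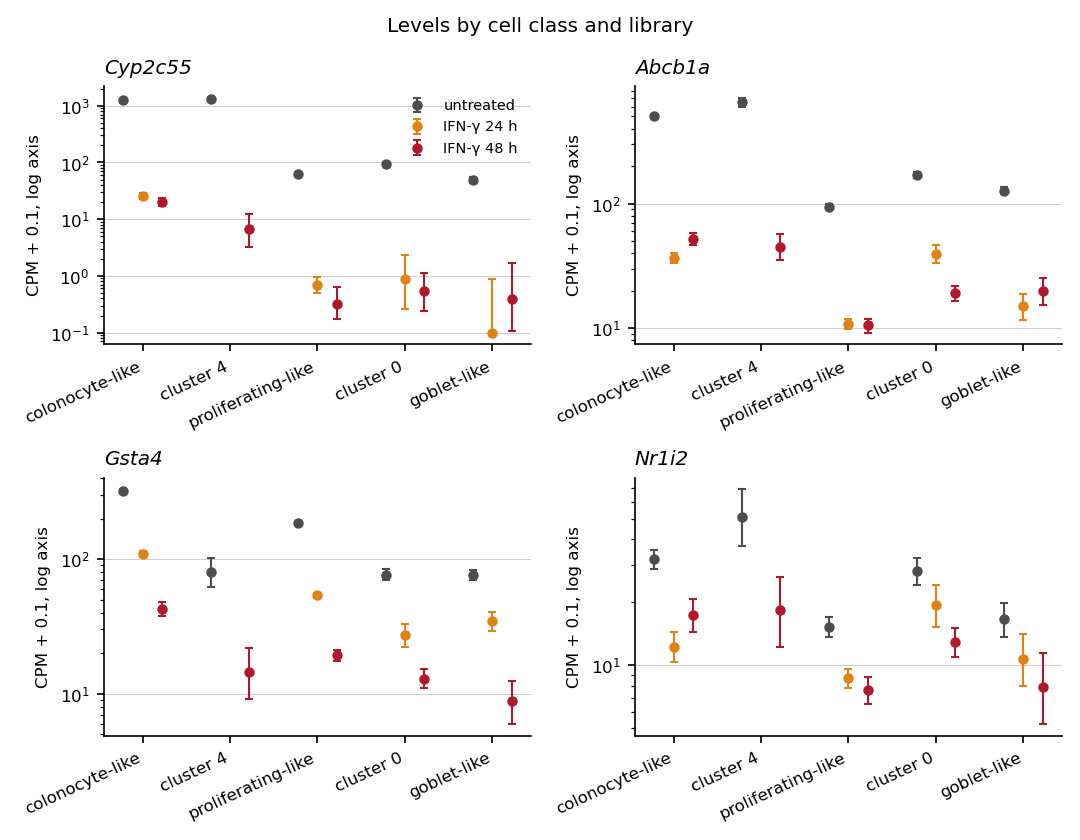
CPM plus 0.1 (log axis) of Cyp2c55, Abcb1a, Gsta4 and Nr1i2 in 5 clusters with at least 50 untreated cells, with exact Poisson 95% intervals; colours mark the library, and a point is missing where the cluster had fewer than 50 cells. Untreated Cyp2c55 stands at 1281 CPM in colonocyte-like cells and 1305 CPM in cluster 4, against 49 to 95.7 CPM in the other clusters shown.

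Detection in single cells was read after each cell had been thinned at random to 5000 UMIs, since depth differed between libraries. Of 174 untreated colonocyte-like cells, 69% (61.5% to 75.7%, Clopper-Pearson) had a Cyp2c55 UMI, against 9.26% (4.53% to 16.4%) of 108 cells at 24 h and 5.96% (3.51% to 9.38%) of 285 cells at 48 h. Before thinning, the values were 85.1%, 30.6% and 11.2%, and the median depths of these cells were 52461, 77305 and 21275 UMIs. Abcb1a was found in 71.8%, 20.4% and 24.9% of thinned colonocyte-like cells, without thinning in 96.6%, 69.4% and 48.8%. Both genes were thus found in fewer cells after IFN-γ. Gsta4 was found in 61.5%, 31.5% and 14% (97.7%, 84.3% and 44.9% without thinning) and Sult1b1 in 38.5%, 9.26% and 8.07% (77%, 45.4% and 17.2% without thinning). Cyp2c68 was found in 21.3% of untreated cells and in 0 of 108 and 0 of 285 thinned cells after IFN-γ. The Clopper-Pearson intervals of these counts of 0 reach 3.36% and 1.29% of cells at this depth. The Cyp2c68 shares before thinning were 47.7%, 4.63% and 1.75% in the untreated, 24 h and 48 h libraries. Nr1i2 was found in 16.1% (11% to 22.4%), 5.56% (2.07% to 11.7%) and 9.47% (6.34% to 13.5%), so the intervals of the IFN-γ libraries overlapped that of untreated cells. Goblet-like cells, which are secretory and not absorptive, were set beside these shares because free RNA adds UMIs to every cell. There Cyp2c55 was found in 11% of 136 untreated cells at a median depth of 40366 UMIs, in 0 of 78 cells at 24 h, where 3 cells would be 3.85%, and in 0.427% of 234 cells at 48 h, with 33.1%, 0% and 0.427% before thinning. The median depths of the goblet-like cells were 60166.5 UMIs at 24 h and 10702 UMIs at 48 h. The Cyp2c55 share in colonocyte-like cells thus lay above that in goblet-like cells in each library, but at 24 h this rests on 10 of 108 against 0 of 78 thinned cells. Sult1b1 was found in 0 of 136 thinned untreated goblet-like cells (up to 2.68%, Clopper-Pearson), and in 11.8% of them before thinning. Abcb1a was found in 36.8% of these thinned cells and in 7.69% and 7.26% of goblet-like cells at 24 h and 48 h.

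**Figure D4:**
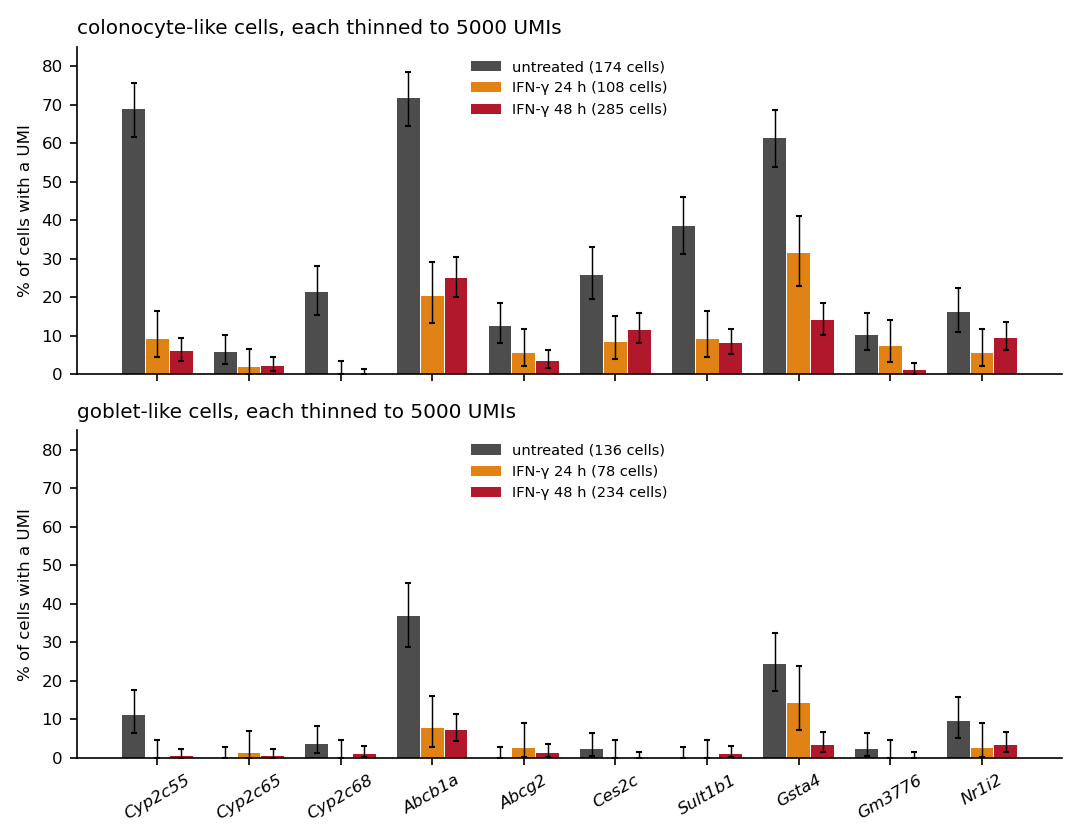
Percentage of colonocyte-like cells (top) and goblet-like cells (bottom) with at least 1 UMI of each of the 10 genes in the 3 libraries, each cell thinned to 5000 UMIs, with Clopper-Pearson 95% intervals. Cyp2c55 stands at 69%, 9.26% and 5.96% in colonocyte-like cells and at 11%, 0% and 0.427% in goblet-like cells.

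Single cells differed widely in Cyp2c55. In untreated colonocyte-like cells Cyp2c55 ranged from 0 to 17605 CPM with a median of 812 CPM, and 26 of 174 cells had no UMI. At 24 h the median was 0, the highest cell had 559 CPM and 75 of 108 cells had none. At 48 h the median was 0, 253 of 285 cells had none and the highest cell had 1372 CPM. The 10% of colonocyte-like cells with the most Cyp2c55 UMIs held 40.2%, 82.3% and 97.8% of them in the untreated, 24 h and 48 h libraries. Over the 10 genes this share in untreated cells ran from 33.5% for Abcb1a to 82.4% for Gm3776. The intervals on summed UMIs leave out this spread between cells. Thinned untreated colonocyte-like cells had a median of 3 of the 10 genes, and 50 of 174 cells had 5 or more. After IFN-γ, 0 of 108 cells at 24 h and 4 of 285 cells at 48 h had 5 or more, and 37% and 53.7% of cells had none of the 10 genes, against 4.6% of untreated cells.

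Barcodes under 2000 UMIs served as a stand-in for free RNA. The deposited barcodes began at 1390 UMIs (untreated), 851 UMIs (24 h) and 1624 UMIs (48 h). Emptier droplets were thus absent, and the UMI range of this background differed by library. Shallow or damaged cells in it could not be told apart from free RNA. Untreated barcodes of this kind had 131 CPM of Cyp2c55, 64.5 CPM of Abcb1a, 216 CPM of Gsta4 and 11.2 CPM of Nr1i2. The levels in untreated cells were 376, 216, 179.7 and 22.3 CPM. The 48 h background had 0.783, 4.62, 27.8 and 4.27 CPM, and it was below the untreated background in all 10 genes, as was the 24 h background. The share of all genes lower in the background was not computed and the genes were chosen as lower, so nothing is read from this count. The ratio of background to cells was 1.2, 0.988 and 1.41 for Gsta4 in the untreated, 24 h and 48 h libraries, so this gene was about as high in the background as in the cells. For Cyp2c68 the ratio was 1.26 at 24 h, for Gm3776 it was 0.921 in the untreated library, for Ces2c 0.905 at 24 h, and for Sult1b1 0.799 and 0.811 in the untreated and 24 h libraries. Over the other 5 genes (Cyp2c55, Cyp2c65, Abcb1a, Abcg2 and Nr1i2) it lay between 0.214 and 0.824. Over 10 alternatives, among them the subtraction of the background profile at 10% of each library, the ratios of Gsta4 lay between −1.67 and −1.13 at 24 h and between −3.25 and −3.00 at 48 h. The subtraction itself gave −1.56 and −3.22. With a background so near the level in cells, subtraction could move these ratios only little, so nothing is read from it on free RNA.

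The wider pathway was read from 10 lists of 149 measured genes. Over all cells 68 of 127 genes with at least 10 UMIs were at least 2-fold lower at 24 h and 68 of 126 at 48 h, beside 26% and 16.6% of all genes, and 58 of 117 and 58 of 116 without the 10 genes. Without the 10 genes their median log2 ratio was −0.997 at 24 h and −1.04 at 48 h, beside −0.46 and −0.18 over all genes. At least 2-fold higher were 2 of 127 genes at 24 h (Xdh and Mgst1), beside 3.46% of all genes, and 3 of 126 at 48 h (Xdh, Cyp1b1 and Slco3a1), beside 5.26%, of which all but Xdh were named after their values were seen. With TMM factors 49 of 127 genes were at least 2-fold lower at 24 h, beside 16.5% of all genes, and 62 of 126 at 48 h, beside 13.4%. The lists were written with earlier results of these libraries known. The counts of lower genes, also those without the 10 genes, include Cyp2c40, Cyp2c67, Cyp2c69 and Cyp2c70. The direction of these paralogs was set by the limit of 10 UMIs, so that part of the counts was fixed in advance.

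The counts of each list are read against the same 26% and 16.6% of all genes. Of the other P450 genes, 8 of 14 were at least 2-fold lower at 24 h and 7 of 13 at 48 h, with Cyp2s1 at 30.1, 11.5 and 7.49 CPM and Cyp2j6 at 30.5, 13.8 and 12.5 CPM. Of other oxidation, reduction and hydrolysis genes, 6 of 20 and 10 of 20 were lower to that extent, the first near the share of all genes. Here the alcohol dehydrogenase Adh1 had log2 ratios of −3.31 and −3.88 and the aldo-keto reductase Akr1c19 of −1.61 and −1.71. The carbonyl reductase Cbr1 was at −1.09 and −1.35. Xdh, which encodes the purine-degrading xanthine dehydrogenase, had higher levels after IFN-γ, at 13.3, 80.5 and 122 CPM, with ratios of 2.60 and 3.20. Of the carboxylesterases 5 of 7 and 6 of 7 were lower, Ces2e at 20.1, 7.34 and 3.68 CPM.

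Of the glutathione transferases 12 of 22 genes were at least 2-fold lower at 24 h and 15 of 22 at 48 h, with Gstm1 at 127, 24.6 and 17.9 CPM and Gstm2 at 30.7, 10.5 and 7.51 CPM. Of the sulfotransferases and acetyl and methyl transferases 6 of 10 were lower at either time. They included the sulfotransferase Sult1d1, at 38.3, 6.06 and 5.21 CPM, and Papss1 and Papss2, which make the sulfate donor and had log2 ratios of −1.26 and −1.48, and of −1.78 and −1.46. Of the UDP-glucuronosyltransferase list 9 of 10 and 7 of 10 were lower. Of these, 1 at 24 h and 2 at 48 h had no UMI after IFN-γ, so the limit of 10 UMIs set their direction. Ugt2b34 was at 60.3, 20.6 and 16.3 CPM and Ugdh, which makes the glucuronic acid donor, at 87.1, 37.2 and 39.6 CPM.

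Transporters and receptors carry drugs across the membrane or sense them. Of the efflux transporters 6 of 11 were at least 2-fold lower at 24 h and 5 of 11 at 48 h, with medians of −1.08 and −0.47. Of the uptake transporters 4 of 11 and 3 of 11 were lower, near the shares of all genes. Of the xenobiotic receptors and their partners 5 of 15 were lower at 24 h and 2 of 15 at 48 h, with medians of −0.70 and −0.37, and Nr1i2 was 1 of the 2 at 48 h. The other, Nr1i3, which encodes the related receptor CAR and was named after its values were seen, had 146, 29 and 43 UMIs and ratios of −2.85 and −1.69.

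The genes most alike to Cyp2c55 were found by the Pearson correlation of log2(CPM + 1) over 15 sums, each of 1 cluster in 1 library with at least 50 cells, among 8897 genes averaging 10 CPM or more over these sums. They were Cyp2d34, Hao2, Cttn, 4931406C07Rik and Wasl, with r between 0.968 and 0.98. Among the 9 other genes followed here, r with Cyp2c55 was highest for Abcb1a (0.95) and Cyp2c68 (0.934) and lowest for Abcg2 (0.357), and r with Nr1i2 was 0.814. The genes most alike to Nr1i2 were Actn4, Hsd17b11, Pdcd6ip, Smad7 and Tmem236, with r between 0.949 and 0.961. The sums share libraries and depths and are not independent, so no p-value is given.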

How the data were processed

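The 3 libraries of mouse colon organoids (untreated, IFN-γ for 24 h, IFN-γ for 48 h) were measured by droplet sc-RNAseq with 3′ chemistry. The authors made the deposited UMI counts per gene and barcode with Cell Ranger 6.0.1 on mm10, collapsed by UMI and not normalised. The annotation release is not given in the sources used here. Of 32285 features, 32235 were found by ID in GENCODE vM21, which gave the positions.

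The 10 genes and the lists were chosen with earlier results of these data known. Samples were grouped by their labels. Cells were filtered as in the methods of the study, and doublets were kept. Counts were summed over cells and expressed as CPM of the library or cluster total (Python 3.11.15, numpy 2.4.6, scipy 1.17.1, pandas 2.3.3). Exact conditional binomial intervals were used for log2 ratios, exact Poisson intervals for levels and Clopper-Pearson intervals for shares of cells. Each covers 95% and leaves out any spread between cultures. The intervals on summed UMIs also leave out the spread between cells, so they are too narrow where few cells hold most UMIs. A library with 0 counts was set to a floor of 3 counts for a bound, and a gene needed 10 counts over a pair of libraries. Clusters came from Seurat 5.3.0 in R 4.3.3 (CCA integration over 30 dimensions, 2000 variable genes without the 10 genes and the drug metabolism lists, 20 principal components, resolution 0.5). They were named from lists of cell type markers. A cluster of low depth stayed unnamed where no gene of its best list was among its 10 leading genes. TMM factors came from edgeR 4.0.16. The ratio code was tested on simulated data.

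Named beside the 10 genes were, per list, up to 4 genes in each direction that averaged 10 CPM or more and lay past 2-fold in the same direction at both times. Further named were Cyp2c paralogs with 10 or more counts in a library, interferon targets (1 of them is not reported here) and the 5 genes most alike to Cyp2c55 and to Nr1i2. Promoter windows were taken from RefSeq, and transcript ends from GENCODE vM21. Cyp2c44 was not analysed here. Alternatives covered the cell filter, scaling, averaging, depth, the deepest cells, free RNA, cluster make-up, clustering and marker cuts.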

Additional observations from a re-analysis of the deposited data

Results flagged for a closer look

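Abcb1b, the paralog of Abcb1a on the same chromosome, had a log2 ratio to untreated of −0.17 at 24 h and 0.46 at 48 h over all cells, so that the IFN-γ libraries lay on opposite sides of the untreated library. The difference between the times was not tested, since each condition was 1 library and both ratios share the untreated library. Its levels were 8.92 CPM in the untreated library, 7.92 CPM at 24 h and 12.3 CPM at 48 h. In colonocyte-like cells the ratios of Abcb1b were 0.17 and 0.17, and with TMM factors those over all cells were 0.28 and 0.64, so in neither case did the times lie on opposite sides.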

How the results depend on the processing

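Over 10 alternatives for all cells and 8 for colonocyte-like cells, 358 of 360 ratios of the 10 genes to untreated kept their direction, and 30 moved by over 1.5 times. Without integration, clusters split by library, and in colonocyte-like cells 4 genes were at least 2-fold lower at 24 h (9 with integration) and 4 at 48 h against 24 h (2 with integration). The untreated colonocyte-like cells then numbered 478, against 174 with integration. In that setting Gm3776 reversed to 0.17 at 24 h, and Cyp2c65 stood at 0.98. The cause was not tested. Among these alternatives, the share of all genes was computed for TMM factors only, so nothing is read from the counts in the others. With TMM factors the share of all genes at least 2-fold lower at 24 h was 16.5% over all cells (26% with totals) and 13.4% in colonocyte-like cells (20.3% with totals). Over all cells 8 to 10 of the 10 genes stayed at least 2-fold lower under each alternative, the exceptions being Cyp2c65 at 24 h, past 2-fold in 3 of 10 alternatives, and Nr1i2, past it in 5 of 10 at 24 h and 3 of 10 at 48 h. The 1 library per condition sets the limit on every comparison, because a difference between cultures cannot be told apart from a difference between treatments. No paired analysis was possible because each condition had 1 library, and leaving out a replicate was not possible for the same reason.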
